A study of Danio rerio with 14 samples.

Results

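Broad H2A.Z domains were the consensus peaks at least 2000 bp wide in 2 tables of H2A.Z occupancy from zebrafish embryos, one table for each treatment against DMSO. They were taken from the 25 assembled chromosomes, without the part of chromosome 4 that starts at or beyond 25 Mb. The 5-AzaC table held 572 of them among its 29854 peaks, and the TDCIPP table held 528 among 28988. On the sequences used, the domains were 572 of 24090 peaks (2.37%) and 528 of 23309 peaks (2.27%), and the remaining 23518 and 22781 are called narrower peaks below.

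H2A.Z was mapped by CUT&Tag, in which an antibody, here a polyclonal one against H2A.Z, directs a transposase to insert sequencing adapters around the protein. All 8 samples analysed came from wild-type AB/Tuebingen embryos held at around 50 per well, collected at 6 hours after fertilization and used at around 10000 cells per library. They were 3 samples in 0.1% DMSO as the control, 3 samples in 100 µM 5-AzaC (5-azacytidine, a cytidine analogue that lowers DNA methylation) from the 1-cell stage, and 2 samples in TDCIPP, an organophosphate flame retardant, at 3.12 µM from 0.75 hours after fertilization. The other 6 of 14 samples, of H2A.Z overexpression with DMSO or 5-AzadC, were not analysed here.

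H2A.Z is a variant of histone H2A that is placed into nucleosomes by the SRCAP and p400 complexes, mostly beside gene starts and at enhancers. In early zebrafish embryos, nucleosomes that hold H2A.Z are known to lie on DNA without methylation and to keep genes in a poised state before they are transcribed. In many cell types most peaks of such marks are narrow, and a small set spreads over several nucleosomes in a row. Which genes or repeats lie in the domains described here was not analysed, and regions are named by their GRCz11 coordinates, a build given in the submitters' processing notes.

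Each table gives one level per group, the log2 of the mean normalised read count over the whole peak, and the authors' log2 change, p-value and FDR. No value for a single sample was used here, so the depth of each library is unknown and no SD can be given. The spread between samples enters only through the deposited p-values, and since the labels do not say that samples came from separate clutches, that spread may be technical. A domain is called lower or higher at a deposited FDR under 0.05, and tested means an FDR under 1, which held for 569 of 572 and 521 of 528 domains. Fewer cells with H2A.Z at a place and less H2A.Z per cell cannot be told apart in such values.

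Most broad domains were only a little wider than the limit that defined them. Their median width was 2260.5 bp in the 5-AzaC table (interquartile range 2109.75 to 2525 bp) and 2265.5 bp in the TDCIPP table, against 779 and 765 bp for narrower peaks. The widest spanned 6665 and 6648 bp. In the 5-AzaC table, 281 domains were under 2250 bp, 40 reached 3000 bp and 10 reached 4000 bp. Just inside the limit, chr16:43076510-43078511 (2001 bp) had a log2 change of -1.15 and chr17:47060406-47062407 (2001 bp) one of 0.66 in the authors' deposited table. Just outside, chr16:25340380-25342379 and chr19:39276152-39278151 (both 1999 bp) had -0.92 and -0.49 in the authors' deposited table. In the TDCIPP table the pair inside, chr12:27034761-27036761 and chr8:18897599-18899599 (both 2000 bp), each had -1.10 in the authors' deposited table. The pair outside, chr2:36938698-36940697 and chr8:7565788-7567787 (both 1999 bp), had -1.02 and -0.69 in the authors' deposited table.

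In control embryos the domains held more H2A.Z reads than narrower peaks, and part of this was their length. The median DMSO level was 5.67 on the log2 scale (50.9 normalised reads per domain) in the 5-AzaC table against 3.67 for narrower peaks. In the TDCIPP table it was 5.715 against 3.69. Per kb of peak the median DMSO levels lay closer, at 22 normalised reads against 16.6 in the 5-AzaC table and 22.8 against 17.1 in the TDCIPP table. The domains covered 6.42% of the peak length and held 9.0% of the DMSO reads in the 5-AzaC table, and 6.18% and 8.83% in the TDCIPP table. Across domains, wider ones tended to have higher DMSO levels (Spearman's rho 0.34 over 572 and 0.28 over 528 domains, which share libraries, and whose counts grow with length). The DMSO level ranged from 2.51 to 10.37 in the 5-AzaC table and from 1.29 to 10.37 in the TDCIPP table.

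**Figure D1:**
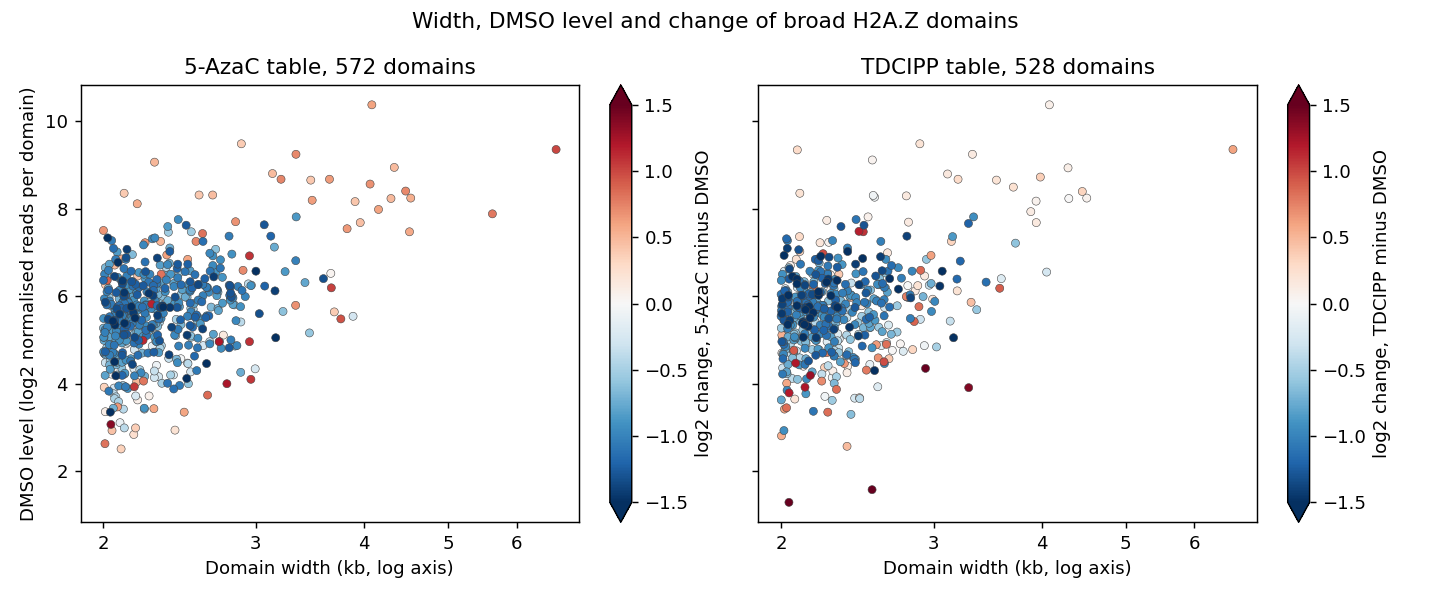
Domain width in kb (log axis) against DMSO level in log2 normalised reads per domain, one point per broad domain. Panels are the 5-AzaC table (572 domains) and the TDCIPP table (528 domains). Colours give the log2 change, treated minus DMSO, from blue below 0 to red above 0. Domains with changes below 0 fill the narrow end at levels of about 5 to 7. In the 5-AzaC table the 10 domains of 4000 bp or more sit at the top right, all with changes above 0.

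In 5-AzaC, H2A.Z was lower than in DMSO at most broad domains, while a small group of wide, strong domains was higher. In the authors' deposited table, the 572 domains had a median log2 change of -0.87 (interquartile range -1.07 to -0.55), with 496 below 0 and 76 above. Narrower peaks had a median of -0.68, and all peaks of the authors' deposited table one of -0.70. In the authors' deposited table, 271 domains (47.6% of those tested, 95% Wilson interval 43.6 to 51.7) were called lower, where 18.7% of all tested peaks were, and 23 (4.04%) were called higher, where 0.45% of all tested peaks were. Another 275 tested domains did not pass. The changes were not spread evenly around 1 centre. A change from 0 to 0.25 was seen in 9 domains of the authors' deposited table, and one from 0.50 to 0.75 in 27.

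Those calls are relative to no change, and 86.0% of all peaks lay below 0 in the authors' deposited table. This shift depends on the scaling of the reads, which is not given, so lower and higher are relative to that scaling. Measured from the median of the authors' deposited table, the domains' median lay at -0.17, and 374 domains (65.4%) were below it. In an approximate test of each change against that median, derived from the authors' deposited table and added after the data were seen, 0 domains were lower, where 0% of all tested peaks of the table were, and 51 domains were higher, where 1.22% of all tested peaks were, at an adjusted p under 0.05. Without adjustment, at p under 0.05, that test gave 30 lower and 68 higher domains, and the deposited p-values gave 373 and 43. The lower share of calls was 92.2% by the deposited FDR and 0% in this test, which called 0 peaks of the whole table lower. How well this test finds falls was not tested. With the deposited calls kept and only their signs taken from the table's median, 271 domains were lower and 23 higher. No sign could change there, since every lower call lay at -0.73 or below, under the table's median of -0.70.

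In TDCIPP the broad domains were also mostly lower than in DMSO. The 528 domains had, by the authors' deposited table, a median log2 change of -0.785 (interquartile range -1.09 to -0.25), with 427 below 0 and 100 above. Narrower peaks had -0.56 and all peaks -0.53 in the authors' deposited table. In the authors' deposited table, 120 domains (23.0% of those tested, 95% Wilson interval 19.6 to 26.8) were called lower, where 9.81% of all tested peaks were, and 6 (1.15%) were called higher, where 2.05% were. Another 395 tested domains did not pass. Against the table's median change, the approximate test derived from the authors' deposited table gave 7 lower domains, where 0.71% of all tested peaks of the table were lower, and 19 higher domains, where 4.58% were higher. The lower share of the domains' calls was 95.2% by the deposited FDR and 26.9% in this test. With the deposited calls kept and only their signs taken from the table's median, 120 domains were lower and 6 higher. Again no sign could change, since every lower call lay at -0.93 or below, under the median of -0.53. Wilson intervals here cover counting over domains only. The TDCIPP group had 2 samples and the 5-AzaC group 3, and both comparisons used the same DMSO samples, so their call counts are not set against each other.

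**Figure D2:**
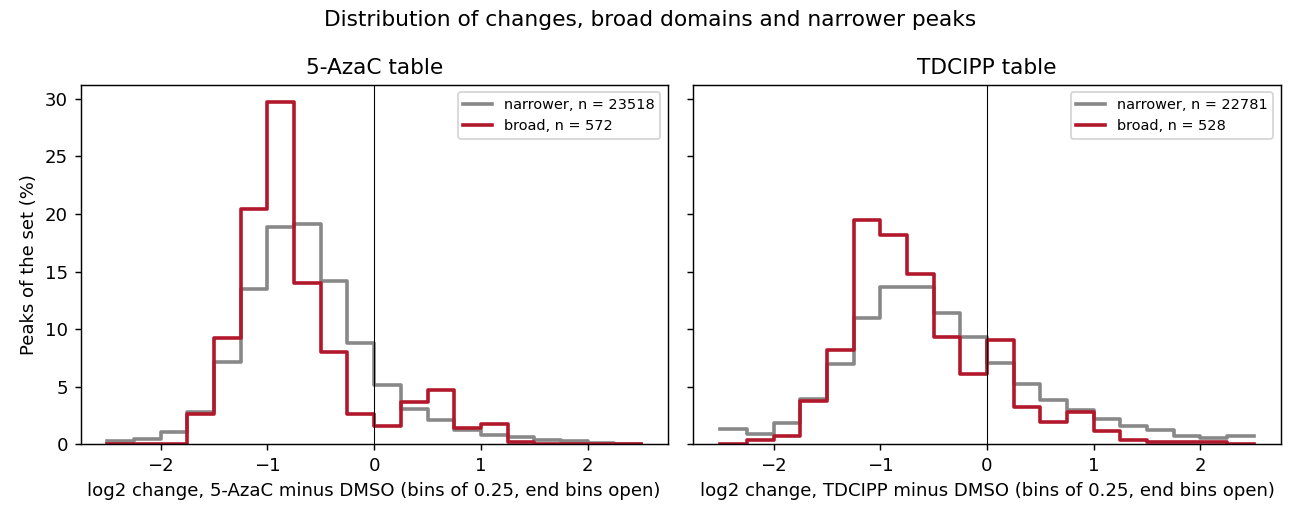
Share of peaks (%) by log2 change, treated minus DMSO, in bins of 0.25, for broad domains and narrower peaks of each table; changes beyond the ends of the axis are in the end bins. Broad domains of the 5-AzaC table have a main body around -0.87 and a smaller one above 0, where 27 domains lie between 0.50 and 0.75 and 9 between 0 and 0.25.

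Read totals were compared on a linear scale. Since the scaling of the reads is not given, the ratios depend on it and are not absolute amounts of H2A.Z. Summed over the 1.37 Mb of broad domains, the normalised reads in 5-AzaC were 0.848 of those in DMSO, with means of 60.5 and 71.4 per domain. For narrower peaks the ratio was 0.635, with means of 11.1 and 17.6. The domains therefore held 9.0% of the reads in peaks in DMSO and 11.7% in 5-AzaC. In the TDCIPP table the ratio was 0.791 over 1.26 Mb of domains and 0.753 over narrower peaks, and the share went from 8.83% to 9.23%. A few strong domains held a large share of these reads. The 31 domains of the 5-AzaC table with a DMSO level of 7.5 or more, a limit chosen after the values were seen, held 27.9% of the domains' reads in DMSO and 46.7% in 5-AzaC. Their mean went from 368 to 521 normalised reads (ratio 1.42), against 54.4 to 34.1 (0.627) for the other 541. In the TDCIPP table the 30 such domains went from a mean of 388 to 416 (1.07), and the other 498 from 55.3 to 37.2 (0.672).

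To see what width adds to strength, domains were set beside narrower peaks of like DMSO level, in bands of 0.5. In the 5-AzaC columns of the authors' deposited table, 47.5% of domains and 43.5% of narrower peaks of like level were called lower, a difference of 3.98 percentage points. For TDCIPP the shares in the authors' deposited table were 22.8% and 25.3%, a difference of -2.57 points. The share called higher in the authors' deposited table was 3.85% against 3.29% for 5-AzaC, and 1.14% against 3.90% for TDCIPP. The median log2 change of the domains in the authors' deposited table, minus the weighted mean of the narrower peaks' band medians, was -0.11 for 5-AzaC and -0.011 for TDCIPP. Taken within each band and then averaged, a measure added after the data were seen, that difference in the authors' deposited table was -0.012 and 0.052. The first measure sets a pooled median against a mean of band medians, and only the second takes both sides alike. When the bands were made on the level per kb instead, 47.4% against 17.5% (5-AzaC) and 22.7% against 8.59% (TDCIPP) were called lower in the authors' deposited table. Regions are not replicates, so none of these differences was tested.

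The change was also read by DMSO level. The DMSO level is itself a term of the change, so weak bands can lean upward and strong bands downward by construction, for domains and narrower peaks alike. In the authors' deposited table for 5-AzaC, the 37 domains with a DMSO level below 4 had a median log2 change of -0.25. The median was -0.725 in the 110 from 4 to 5, -0.91 in the 224 from 5 to 6 and -0.99 in the 148 from 6 to 7. It was -0.90 in the 22 domains from 7 to 7.5 and 0.50 in the 31 at 7.5 or more, again in the authors' deposited table. Lower calls in the authors' deposited table were 0, 21, 119, 112, 14 and 5 in these bands, and higher calls 0, 3, 2, 2, 3 and 13. Narrower peaks of high level were often called higher too. The authors' deposited table called 41.9% of domains and 35% of narrower peaks higher at 7.5 or more. From 7 to 7.5 it called 13.6% and 26.1% higher. From 4 to 7 the 3 bands had 19.1%, 53.1% and 75.7% of domains called lower in the authors' deposited table, near the 17.9%, 47.9% and 68.6% of narrower peaks. The weakest domains gave no call, and at an unadjusted p under 0.05 the authors' deposited table had 2 of those 37 lower and 2 higher.

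For TDCIPP the same bands of the authors' deposited table had medians of 0.22 (24 domains), -0.46 (103), -0.87 (211), -0.965 (142), -0.925 (18) and 0.12 (30). Lower calls in the authors' deposited table were 0, 0, 47, 59, 9 and 5, and higher calls 1, 2, 0, 1, 2 and 0. From 5 to 6 and 6 to 7 the authors' deposited table called 22.3% and 41.5% of domains lower, near the 24.7% and 41.6% of narrower peaks. In the band from 4 to 5, 0 of 103 domains were called lower in the authors' deposited table, against 525 of 6108 narrower peaks (8.60%), with medians of -0.46 and -0.78. At an unadjusted p under 0.05, 19 of those 103 domains were lower in the authors' deposited table. Between levels of 7 and 7.5 domains and narrower peaks also stood apart. The 22 domains of that band had, in the authors' deposited table, 14 lower calls for 5-AzaC and a median of -0.90, while 23 narrower peaks had 6 lower calls and a median of 0.52. The TDCIPP values in the authors' deposited table were 9 of 18 domains lower with a median of -0.925, and 6 of 25 narrower peaks lower with a median of 0.19. In that band of the 5-AzaC table the median DMSO level per kb was 6.0 for domains and 6.64 for narrower peaks on the log2 scale, and the part of this density in the gap was not tested.

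**Figure D3:**
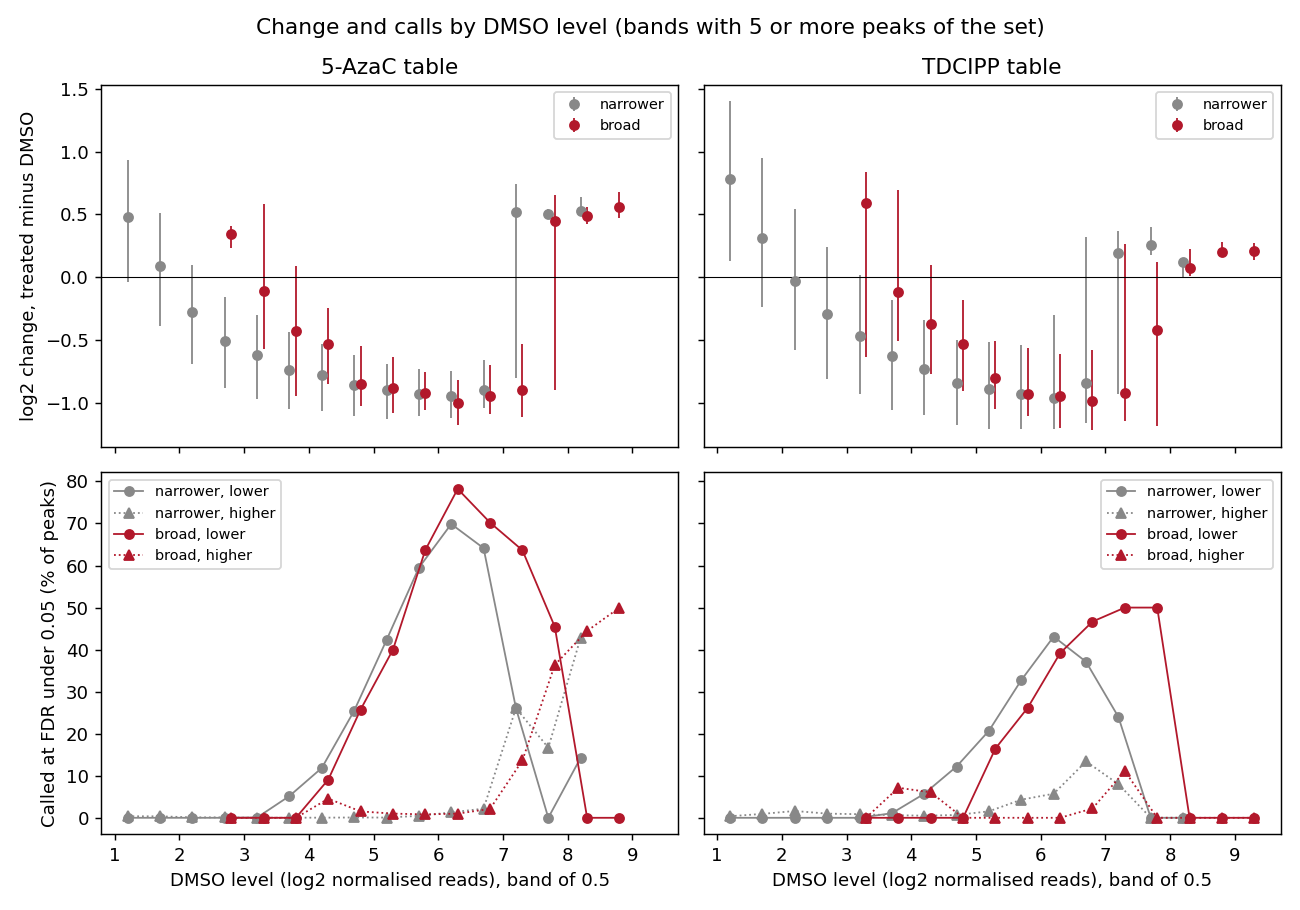
Median log2 change, treated minus DMSO (top), and percent of peaks called at a deposited FDR under 0.05 (bottom), by DMSO level in bands of 0.5, for broad domains and narrower peaks of each table, in bands with 5 or more peaks of the set. Both sets reach their most negative medians at levels of about 6 and turn upward at higher levels, where the 5-AzaC domains lie above 0 from 7.5 on and the TDCIPP domains only from 8 on (median -0.425 in the 10 from 7.5 to 8), and between 7 and 7.5 the domains (median -0.90 in 5-AzaC) lie below the narrower peaks (0.52).

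In the 5-AzaC table the widest domains went the other way from the rest. Each table has its own consensus peaks, so a width may depend on the treated samples, which was not tested. In the authors' deposited table for 5-AzaC, the 281 domains under 2250 bp had a median log2 change of -0.90. The median there was -0.83 for the 129 from 2250 to 2500 bp and -0.92 for the 122 from 2500 to 3000 bp. It was -0.425 for the 30 domains from 3000 to 4000 bp and 0.60 for the 10 of 4000 bp or more. All 10 of these lay above 0 in the authors' deposited table, and all 10 were higher at an unadjusted p under 0.05. By the deposited FDR, 6 were called higher and 0 lower, where 0.45% and 18.7% of all tested peaks were. For TDCIPP the medians in the authors' deposited table were -0.855, -0.81, -0.61, -0.20 and 0.09, and 0 of its 7 domains of 4000 bp or more were called, with 0 at an unadjusted p under 0.05. Of those 7 domains, 6 lay above 0 and 1 below. Measured from each table's median, 0 of the 10 (5-AzaC) and 0 of the 7 (TDCIPP) lay below it. Their medians were 1.30 and 0.62 above it. The approximate test against that median called 10 and 0 of them higher, where 1.22% and 4.58% of all tested peaks were. Width and level went together here, since the DMSO level had a median of 5.38 in the narrowest class and 8.32 in the widest class of the 5-AzaC table. Narrower peaks of the 5-AzaC table with a DMSO level of 7.5 or more had, by the authors' deposited table, a median of 0.515. This was near the 0.50 of domains of that level. Of these 20 narrower peaks, 18 lay above 0 and 7 were called higher.

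The widest domain of all, chr14:20093738-20100403 (6665 bp), had a DMSO level of 9.35 and a 5-AzaC level of 10.35, or 653 and 1305 normalised reads. Its log2 change of 1.00 did not pass in the authors' deposited table (FDR 0.0573), and in TDCIPP it was 0.60 (FDR 0.467). The second widest, chr24:16262564-16268191 (5627 bp), rose from 7.88 to 8.67 in 5-AzaC (log2 change 0.79, FDR 0.0245 in the authors' deposited table). The TDCIPP peak there was narrower, at 3145 bp, with a log2 change of 0.33 (FDR 0.528) in the authors' deposited table. Both domains thus had a level above DMSO in each treatment, and only the second passed, in 5-AzaC.

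A further 5 of the 10 widest were called higher in 5-AzaC. On chromosome 13, chr13:19165618-19170147 (4529 bp) went from 8.24 to 8.79 (log2 change 0.54, FDR 0.032 in the authors' deposited table). Its neighbour chr13:19115000-19119065 (4065 bp) went from 8.56 to 9.25 (0.69, FDR 0.0236 in the authors' deposited table). Domain chr15:14765970-14770438 (4468 bp) went from 8.40 to 9.11 (0.72, FDR 0.0246 in the authors' deposited table). These 3 had TDCIPP changes of 0.07, 0.23 and 0.33 in the authors' deposited table, none of which passed. Domain chr11:17565132-17569289 (4157 bp) went from 7.98 to 8.58 (0.60, FDR 0.0406 in the authors' deposited table), with 0.12 in TDCIPP. Domain chr7:53011132-53015216 (4084 bp) was the strongest of all broad domains and went from 1323 to 2006 normalised reads, a log2 change of 0.60 (FDR 0.0256 in the authors' deposited table), against 0.09 (FDR 0.841) in TDCIPP.

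The remaining 3 of the 10 did not pass. They were chr21:25839942-25844456 (4514 bp, log2 change 0.57, FDR 0.0606 in the authors' deposited table) and a pair on chromosome 8. Domain chr8:34783256-34787591 had 0.48 (FDR 0.0655) and chr8:34809253-34813550 had 0.49 (FDR 0.0755) in the authors' deposited table. In TDCIPP the authors' deposited table gave all 10 of the widest changes of 0.01 to 0.60, with no FDR under 0.467. Relative to the median of all peaks, all 10 were higher in 5-AzaC in the approximate test derived from the authors' deposited table.

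**Figure D4:**
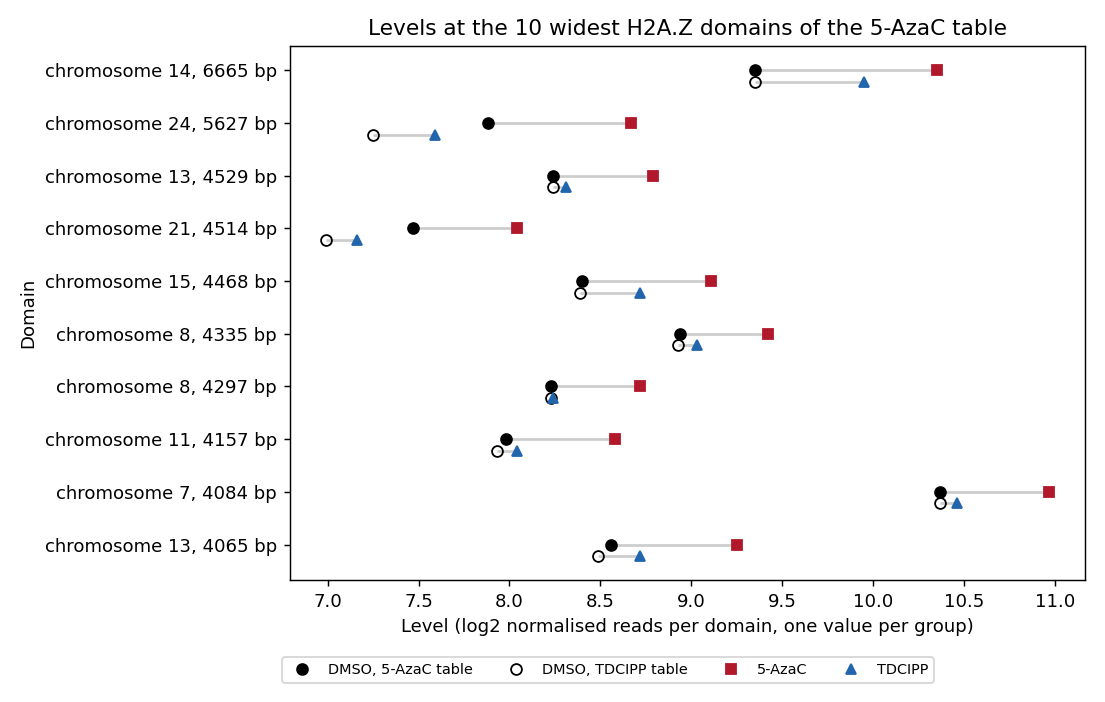
Levels in log2 normalised reads per domain, one value per group, at the 10 widest broad domains of the 5-AzaC table; filled circles are DMSO and squares 5-AzaC from that table, and the offset open circles and triangles are DMSO and TDCIPP for the overlapping peak of the TDCIPP table. The 5-AzaC level lies 0.48 to 1.00 above DMSO in all 10 and the TDCIPP level 0.01 to 0.60 above it; at the chromosome 24 and 21 domains the TDCIPP peaks are narrower (3145 and 2654 bp), so their levels lie lower.

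Not all strong domains were higher in 5-AzaC. After the domain on chromosome 7, the strongest in DMSO were chr11:15112545-15115432 (9.48 to 9.86, log2 change 0.38, FDR 0.156 in the authors' deposited table), the widest domain on chromosome 14, and chr17:39939448-39942786. The last was 3338 bp wide and rose from 9.24 to 9.96 in 5-AzaC (0.72, FDR 0.0162 in the authors' deposited table). Domain chr10:16838442-16840734 followed, with 9.06 in DMSO and 9.56 in 5-AzaC (0.50, FDR 0.0738 in the authors' deposited table). Of the 31 domains at a DMSO level of 7.5 or more, 26 lay above 0 in 5-AzaC and 5 fell in the authors' deposited table.

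Those 5 fell in TDCIPP as well in the authors' deposited table. Domain chr13:88737-91805 went from 7.63 to 6.35 in 5-AzaC (log2 change -1.28, FDR 0.00109 in the authors' deposited table) and had -1.21 (FDR 0.0107) in TDCIPP. Domain chr14:30907898-30910391 had -1.26 and -1.30, and chr20:5050221-5052595 had -0.85 and -1.29 in the authors' deposited table. Domain chr19:19378835-19381276 had -0.94 and -1.10, and chr10:74092-77432 had -0.86 and -0.93 in the authors' deposited table. The other 25 of the 30 strong domains of the TDCIPP table were not called, with 23 above 0. These 5 were picked by level and call after the values were seen, and both treatments were compared with the same DMSO samples.

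The 23 domains called higher in 5-AzaC differed from the 271 called lower in width and strength. Their median width was 3208 bp against 2279 bp, their median DMSO level 7.70 against 5.96, and 13 of the 23 had a DMSO level of 7.5 or more. By the authors' deposited table, they changed by 0.54 to 1.22 on the log2 scale with a median of 0.72, and the lower calls by -1.74 to -0.73 with a median of -1.08. The 6 domains called higher in TDCIPP had a median DMSO level of 5.72, with none at 7.5 or more. Their log2 changes ran from 0.99 to 1.39 in the authors' deposited table, and those of the 120 lower calls from -2.15 to -0.93. The 30 TDCIPP domains at 7.5 or more had a median log2 change of 0.12 there, with 23 above 0 and 0 called higher.

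Among domains called higher in 5-AzaC, the largest rises were at weaker domains. The DMSO level is a term of the change, and weaker domains may need a larger change to be called. How far this order follows from that selection was not tested. Without a call, changes reached 1.36 in the authors' deposited table. Domain chr7:71354651-71357429 went from 4.0 to 5.21, or 16.0 to 37.0 normalised reads (log2 change 1.22, FDR 0.0232 in the authors' deposited table). Domain chr8:34771290-34773565 went from 5.82 to 6.98 (1.15, FDR 0.00744 in the authors' deposited table), and the TDCIPP table had no peak there. The next 3 lay within 64 kb of each other on chromosome 5, where the TDCIPP table had no broad domain, and are described with the runs below. Whether domains broad in the 5-AzaC table alone reached that width through their reads in 5-AzaC was not tested.

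The deepest falls in 5-AzaC were seen at domains of 2024 to 2632 bp. Domain chr6:40990325-40992822 went from 4.12 to 2.38 (log2 change -1.74, FDR 0.0183 in the authors' deposited table). Domain chr16:5239153-5241177 went from 161 to 48.8 normalised reads (-1.71, FDR 0.000198 in the authors' deposited table) and had -1.18 (FDR 0.0248) in TDCIPP. Domain chr10:20362592-20364747 went from 5.76 to 4.09 (-1.68, FDR 0.00116 in the authors' deposited table) and had -1.49 (FDR 0.00804) in TDCIPP. The other two had log2 changes of -1.65 (chr15:16870203-16872835) and -1.62 (chr11:41089160-41091212) in the authors' deposited table, and -0.97 (FDR 0.176) and -1.38 (FDR 0.0544) in TDCIPP. None of these 5 passed the approximate test against the table's median derived from the authors' deposited table.

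For TDCIPP the deepest falls were at 3 domains on chromosome 23 and 1 each on chromosomes 13 and 21. Domain chr23:19164252-19166412 went from 5.5 to 3.35 (log2 change -2.15, FDR 0.00283 in the authors' deposited table) and had -1.56 (FDR 0.00889) in 5-AzaC. Domain chr23:28691444-28693653 went from 6.10 to 4.07 (-2.03, FDR 0.000606 in the authors' deposited table) and had -1.46 (FDR 0.00382) in 5-AzaC. The others, chr13:12020190-12022513, chr21:21640429-21642465 and chr23:26759506-26761634, had -1.89, -1.87 and -1.79 for TDCIPP and -1.56, -1.64 and -1.24 for 5-AzaC in the authors' deposited table. All 5 were called lower in both treatments, and 3 of the 5 also passed the approximate test against the median in TDCIPP.

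The 5 largest rises called in TDCIPP came with other values in 5-AzaC. Without a call, TDCIPP changes reached 2.00 in the authors' deposited table. Domain chr16:54420972-54424265 (3293 bp) went from 3.91 to 5.31 (log2 change 1.39, FDR 0.0381 in the authors' deposited table) and had 0.59 (FDR 0.308) in 5-AzaC. Domain chr6:43273343-43275505 had 1.29 (FDR 0.0421) and chr14:11313463-11315542 had 1.21 (FDR 0.0486) in the authors' deposited table, with -0.87 and -0.32 in 5-AzaC. On chromosome 8, chr8:34684017-34686477, in a run described below, went from 7.48 to 8.65 (1.17, FDR 0.00996 in the authors' deposited table). It had -0.53 (FDR 0.126) in 5-AzaC. Further along this chromosome and outside that run, chr8:35031156-35033644 went from 7.47 to 8.55 (1.08, FDR 0.0138 in the authors' deposited table). It had -0.54 (FDR 0.0889) in 5-AzaC. In 4 of these 5 the treatments lay on opposite sides of DMSO, which was not tested directly. The authors' deposited table called 0 of the 5 in 5-AzaC. Of their 4 changes below 0 in 5-AzaC, only -0.87 lay below the median of all peaks there, -0.70.

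Because each table has its own consensus peaks, domains were matched by overlap of at least 1 bp. A total of 394 domains were broad in both tables, 68.9% of those in the 5-AzaC table and 74.6% of those in the TDCIPP table, and 89 had the same coordinates. Their median level was 5.85 in DMSO, 4.99 in 5-AzaC and 5.015 in TDCIPP, with median log2 changes of -0.91 and -0.87 in the authors' deposited table. The authors' deposited table called 221 of them lower in 5-AzaC and 106 in TDCIPP, with the same DMSO samples in both comparisons. Of all tested peaks, 18.7% were called lower and 0.45% higher in 5-AzaC, and 9.81% and 2.05% in TDCIPP. The 15 matched domains called higher in 5-AzaC had median changes of 0.67 in 5-AzaC and 0.18 in TDCIPP in the authors' deposited table, and 5 others were called higher in TDCIPP. A further 166 domains of the 5-AzaC table overlapped a narrower TDCIPP peak, with median widths of 2125.5 and 1572.5 bp, and 12 had no TDCIPP peak. Of the TDCIPP domains 130 overlapped a narrower 5-AzaC peak and 4 none. In the authors' deposited table the 12 had a median log2 change of 0.235 in 5-AzaC, and the 4 had one of 1.21 in TDCIPP. Whether treated reads brought these peaks into their table was not tested. Domains found in 1 table alone were thus mostly near the width limit or weak.

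Broad domains were found on all 25 chromosomes. Their share of peaks ran from 1.09% on chromosome 25 (8 of 736) to 3.77% on chromosome 13 (34 of 902) in the 5-AzaC table. In the TDCIPP table it ran from 1.17% on chromosome 18 to 3.78% on chromosome 13. Most stood alone, with no other broad domain within 100 kb, which held for 472 of 572 and 438 of 528. The 100 domains in runs had a median log2 change of -0.545 for 5-AzaC in the authors' deposited table, against -0.905 for those alone, and held 16 of the 23 higher calls and 38 of the 271 lower calls. For TDCIPP the 90 domains in runs had -0.195 and those alone -0.82 in the authors' deposited table, with 4 of 6 higher and 17 of 120 lower calls in runs. Over all tested peaks, 18.7% were called lower and 0.45% higher for 5-AzaC, and 9.81% and 2.05% for TDCIPP. Domains in runs and those alone were not matched on DMSO level. Neighbouring domains are not independent of each other, and the difference between domains in runs and alone was not tested.

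Runs of 3 or more domains were found in 7 places of the 5-AzaC table, and domains of a run tended to share their direction. The 5 domains of chr6:42601712-42646735 all fell in 5-AzaC, by the authors' deposited table, with log2 changes from -1.42 to -0.85. Their median of -0.91 lay near the -0.925 of all 124 broad domains with DMSO levels from 5.5 to 6. The 5 TDCIPP domains there (chr6:42613466-42657170) had, in the authors' deposited table, log2 changes from -0.05 to 0.84, with none called and a lowest FDR of 0.0982. At chr6:42623527-42626408, for example, the level was 5.76 in DMSO, 4.86 in 5-AzaC and 6.60 in TDCIPP. The approximate test against the table's median gave chr6:42623523-42626408 and chr6:42643945-42646735 as higher in TDCIPP (adjusted p 0.00763 and 0.0222). At chr6:42654241-42657170 its adjusted p was 0.305. It called 4.58% of all tested peaks higher in TDCIPP and 0 peaks lower in 5-AzaC. The deposited changes split in a similar way at chr14:11313463-11365966. There the authors' deposited table called 2 of 3 domains lower in 5-AzaC and 1 of 3 higher in TDCIPP. The log2 changes there ran from -1.31 to -0.32 in 5-AzaC and from -0.01 to 1.21 in TDCIPP. The central domain of this run, chr14:11334833-11337634, had the same coordinates in both tables and a DMSO level of 6.24, with 4.92 in 5-AzaC (log2 change -1.31, FDR 0.00522 in the authors' deposited table) and 6.22 in TDCIPP (-0.01, FDR 0.995).

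Higher calls in 5-AzaC were found in the runs on chromosomes 5, 10, 2 and 8. All 3 domains of chr5:43190397-43253922 rose, with log2 changes of 1.10, 0.96 and 1.07 in the authors' deposited table and DMSO levels of 4.96, 5.48 and 4.10. The 4 TDCIPP peaks there were all under 2000 bp, with log2 changes from 0.40 to 0.87 in the authors' deposited table and none called. At chr10:16808803-16840734, 4 strong domains had, in the authors' deposited table, log2 changes from 0.40 to 0.63 and 2 were called. The 5 TDCIPP domains there had -0.07 to 0.15 in the authors' deposited table, with none called. At chr2:19447705-19483005 the 5 domains had, in the authors' deposited table, log2 changes from 0.38 to 0.81 for 5-AzaC, and 1 was called.

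The longest run held 7 domains over 130 kb at chr8:34684017-34813550, with log2 changes from -0.53 to 1.15 and 2 higher calls for 5-AzaC in the authors' deposited table. The 4 TDCIPP domains there had 0.01 to 1.17 in the authors' deposited table, with 1 called higher. The domain called higher in TDCIPP, at its left end, was the one with the lowest 5-AzaC change. The seventh run, chr1:16961-104561, had, in the authors' deposited table, log2 changes from -0.89 to -0.49 for 5-AzaC and no call. The runs were picked after their values were seen.

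**Figure D5:**
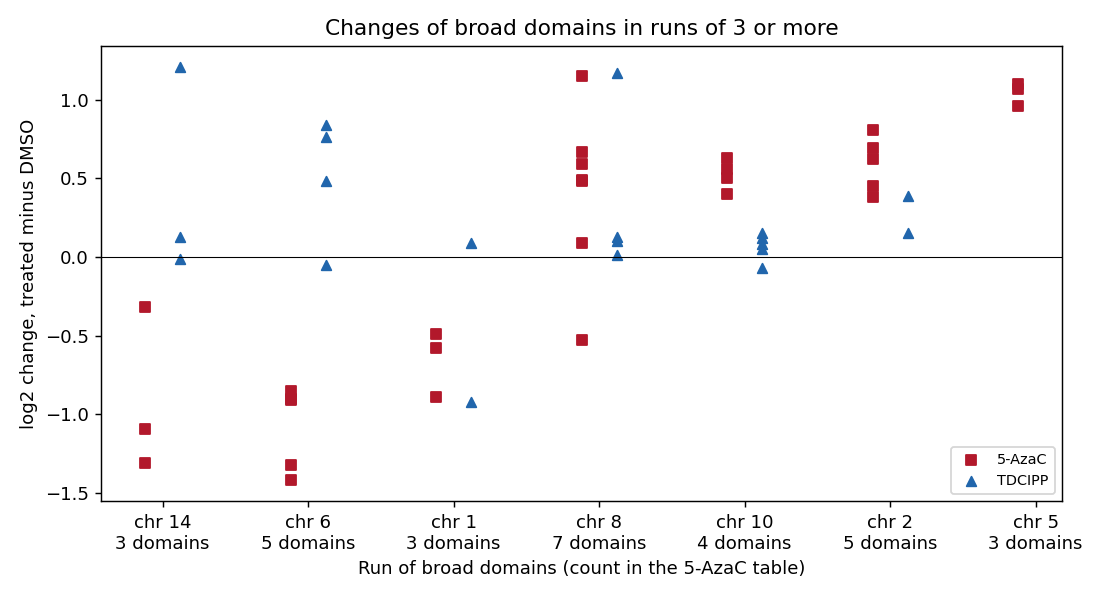
Log2 change, treated minus DMSO, of each broad domain in the 7 runs of 3 or more domains of the 5-AzaC table, with the broad domains of the TDCIPP table in the same stretches; 1 point is 1 domain and the zero line is DMSO. On chromosome 6 the 5-AzaC points lie from -1.42 to -0.85 and the TDCIPP points from -0.05 to 0.84, and on chromosome 5 all 5-AzaC points lie at 0.96 or above with no TDCIPP domain of 2 kb.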

How the data were processed

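H2A.Z CUT&Tag values of 8 samples were read from 2 deposited tables of consensus peaks. The submitters' processing notes name Bowtie2, Picard, MACS2, deepTools, DiffBind and GRCz11; how consensus peaks were formed, the scaling and the test are not given in the sources used here. Each peak has a log2 level per group, a log2 fold change, a p-value and an FDR, all computed by the authors per the file headers. The log2 change equals the difference of the deposited levels to within 0.01. The tables do not state whether starts count from 0 or 1. The authors' FDR was 1 for 33.0% and 40.7% of peaks, and the rest are called tested.

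Samples were grouped by their titles. No count model was run, since 0 columns of values per sample were available to it. Called means a deposited FDR under 0.05. From the deposited values, summaries over domains, bands of level and overlaps were computed with Python 3.11.15, pandas 2.3.3, numpy 2.4.6 and SciPy 1.17.1, and plotted with matplotlib 3.10.9. Narrower peaks in each band of 0.5 in DMSO level were weighted by the broad domains in it. Levels per kb are the log2 level minus the log2 of the width in kb. The approximate test against the table's median took the error of a change from its deposited p-value. Where the change was below 0.2 in size or p reached 0.9, it took the median error of the peak's bin among 50 bins of level. Benjamini-Hochberg adjustment was over tested peaks. The test was added after the data were seen. Its trial on simulated data planted only large rises, with a known normal error. How well it finds falls or smaller changes was not tested.

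The domains, lists and rules were chosen with earlier results of these data known. Domains named are the 10 widest, the 5 largest and 5 most negative called changes per table, the 5 highest in DMSO level, those at the width limit, and runs and strong lower calls picked later. Gene names, gene lists and sequences are not reported here, because the reference tables used another build. Alternatives varied the FDR, adjustment, width limit, bands, level, regions kept and centre.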

Additional observations from a re-analysis of the deposited data

How the results depend on the processing

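Of 67 alternatives over 9 results, 10 reversed, 24 moved and 33 stayed within 1.5 times a count or within the 95% interval of a share or median, which is wide for differences of shares. Taking only the signs of calls from the table's median is counted as stayed, though it could not change the count of calls. The count of called domains (294 for 5-AzaC, 126 for TDCIPP) became 86 and 37 at an FDR under 0.01, 849 and 395 at a width of at least 1500 bp, and 25 and 9 at 3000 bp. Against the table's median, in the test added after seeing the data, it became 51 and 26. For TDCIPP it was 209 at an FDR under 0.1 and 83 with Benjamini-Hochberg adjustment over all peaks. The median log2 change became 0.435 and 0.065 at 3000 bp, above 0 in both tables, and -0.17 and -0.255 relative to all peaks.

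The difference in share called lower from narrower peaks of like level (3.98 points for 5-AzaC, -2.57 for TDCIPP) was 9.90 and 3.46 with bands of the level over all samples, 19.9 and 14.85 with the treated level and 29.9 and 14.1 with the level per kb. It was 7.89 and -0.25 against narrower peaks of 500 to 1500 bp, -6.10 for 5-AzaC at 3000 bp and 0.906 for TDCIPP at 1500 bp. The difference in median log2 change (-0.11 and -0.011) was -0.16 and -0.26 with the level over all samples, -0.27 and -0.64 with the treated level, -0.19 and -0.21 with the level per kb and -0.15 and -0.091 against narrower peaks of 500 to 1500 bp. At 3000 bp it was 0.63 and 0.44. Taken within each band, an alternative added later, it was -0.012 and 0.052. Matching on the treated level sets domains beside peaks chosen by the outcome, and the level over all samples also includes the treated samples. Otherwise the cause of these shifts was not tested.

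No paired analysis was possible because the tables hold 1 value per group. For the same reason leaving out a replicate was not run. The share of domains at gene starts was not run, for want of a genome of the files' build. Depth is unknown, and calls were few at low levels.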

Other observations

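Outside the regions described, 127 (5-AzaC) and 110 (TDCIPP) peaks were as wide. Over all tested peaks, 18.7% were called lower and 0.45% higher for 5-AzaC, and 9.81% and 2.05% for TDCIPP. On alternate-locus sequences, 92 peaks of 2000 bp or more had, in the authors' deposited table, a median log2 change of -0.995 for 5-AzaC. Of these, 49 (53.8% of those tested) were called lower and 1 (1.10%) higher. For TDCIPP the authors' deposited table gave 77 such peaks a median of -0.51. It called 7 (9.09%) lower and 2 (2.60%) higher, near the shares of all tested peaks. On the part of chromosome 4 from 25 Mb onward, 13 and 12 wide peaks had medians of 0.45 and 0.57 in the authors' deposited table. They lay on both sides of 0, with 6 below and 7 above for 5-AzaC and 5 below and 7 above for TDCIPP. Calls among them were 1 lower (7.69%) and 1 higher (7.69%) for 5-AzaC, and 2 lower (20%) and 1 higher (10%) for TDCIPP. On unplaced sequences, 22 and 21 wide peaks had medians of 0.44 and 0.12 in the authors' deposited table. Calls there were 5 lower (22.7%) and 4 higher (18.2%) for 5-AzaC. For TDCIPP they were 2 lower (9.52%) and 1 higher (4.76%).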
